A study of Mus musculus with 8 samples.

Results

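Genes of alveolar macrophages, 10 in number, were followed in bulk RNA from lung tumors of mice: *Chil3*, *Marco*, *Mrc1*, *Siglecf*, *Pparg*, *Ear1*, *Ear2*, *Itgax*, *Fabp1* and *Plet1*. They were chosen by name as genes known to be high in this cell type, by a rule that used no measured value but was written with earlier results of these data known, out of 48709 genes in the table, of which 14929 passed the filter on low counts. All 10 were found and all 10 passed the filter. The tumors arose in mice of the *K* model, of mixed B6J/129S4vJae background, after endotracheal delivery of the vector LentiCRISPRv2Cre. That vector carries Cre recombinase, which starts the tumors in this model, together with a guide RNA. The 4 *K-Ctrl* tumors received a control guide RNA against *GFP* and the 4 *K-Setd2KO* tumors a guide RNA against *Setd2*, the gene for the enzyme that trimethylates lysine 36 of histone H3, so both groups share the *K* model, the Cre and the CRISPR vector. Tumors of the study's mice were initiated by 20 weeks of age, and no age, time point or treatment of their own is given for these samples. Whether each tumor came from its own mouse is not stated either, so the p-values measure the spread between these 8 tumors. The submitters' design text speaks of flash-frozen tumors and their extraction text of cell lines, a difference that was not resolved.

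Alveolar macrophages live on the airspace side of the lung, where they clear inhaled particles, microbes and used surfactant. Their identity is set up after birth by the cytokine GM-CSF, whose receptor signals toward the nuclear receptor PPARγ, the product of *Pparg*, and it is kept up by TGF-β signaling. The transcription factor PU.1, product of *Spi1*, and C/EBP factors act in the macrophage lineage more widely. The 10 genes fall into surface receptors (*Marco*, *Mrc1*, *Siglecf*, *Itgax*), the regulator *Pparg*, a lipid carrier (*Fabp1*), a surface protein (*Plet1*) and secreted proteins (*Chil3*, *Ear1*, *Ear2*). Several are shared with other cells: *Itgax* with dendritic cells, *Siglecf* with eosinophils, *Pparg* with fat cells and *Fabp1* with hepatocytes.

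The promoters of 5 members are shown because the letters searched in them belong to factors of this lineage, and because those of *Ear1* and *Ear2* show how alike these neighbouring genes are. Each is the 250 bases before a RefSeq start on GRCm38.p6, written along the gene's strand. In the first 3, capitals mark GAGGAA or its reverse complement, the core bound by PU.1 and other ETS factors. In the last 2, capitals mark TTGCNNAA, a pattern bound by C/EBP factors. They lie at chr2:14229164-14229413 (plus strand, *Mrc1*), chr1:120505025-120505274 (minus, *Marco*), chr7:43351091-43351340 (plus, *Siglecf*), chr14:43819640-43819889 (minus, *Ear1*) and chr14:44102404-44102653 (plus, *Ear2*).
Mrc1: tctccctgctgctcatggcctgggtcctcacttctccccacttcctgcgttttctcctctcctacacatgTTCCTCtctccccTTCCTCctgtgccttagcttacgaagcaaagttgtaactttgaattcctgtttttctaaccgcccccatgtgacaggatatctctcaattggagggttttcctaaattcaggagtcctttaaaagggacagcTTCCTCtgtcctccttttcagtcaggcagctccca
Marco: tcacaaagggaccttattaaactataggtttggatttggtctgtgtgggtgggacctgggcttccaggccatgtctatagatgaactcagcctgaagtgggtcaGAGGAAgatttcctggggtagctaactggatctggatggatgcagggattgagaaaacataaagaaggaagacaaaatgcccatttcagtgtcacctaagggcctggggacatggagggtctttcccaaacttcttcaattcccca
Siglecf: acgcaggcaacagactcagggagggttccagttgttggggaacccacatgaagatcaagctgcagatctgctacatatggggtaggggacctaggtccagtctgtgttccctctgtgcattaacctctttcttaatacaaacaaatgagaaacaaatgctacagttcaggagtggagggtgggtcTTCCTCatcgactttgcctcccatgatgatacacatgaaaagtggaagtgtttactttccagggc
Ear1: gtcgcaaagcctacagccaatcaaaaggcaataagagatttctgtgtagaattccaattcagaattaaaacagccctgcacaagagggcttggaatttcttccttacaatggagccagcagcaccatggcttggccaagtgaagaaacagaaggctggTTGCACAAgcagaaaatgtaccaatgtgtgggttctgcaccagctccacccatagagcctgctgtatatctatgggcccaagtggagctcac
Ear2: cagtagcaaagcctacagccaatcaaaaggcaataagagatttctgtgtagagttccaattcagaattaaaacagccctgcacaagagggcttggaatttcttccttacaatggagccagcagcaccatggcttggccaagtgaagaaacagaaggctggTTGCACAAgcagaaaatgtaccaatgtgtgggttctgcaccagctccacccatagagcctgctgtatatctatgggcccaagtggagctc

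Counted over windows of 300 bases, from 250 before to 50 after a start, the 10 members had 12 RefSeq promoters, 3 of them for *Pparg*. The letters GAGGAA stood on either strand in 5 of the 12, those of *Mrc1*, *Marco*, *Siglecf*, *Fabp1* and 1 of *Pparg*, against 28.3% of all 32851 promoters of the same length. The *Mrc1* window held them 3 times, starting at -180, -167 and -35 from the start. TTGCNNAA stood in 5 of the 12, those of *Ear1*, *Ear2*, *Fabp1*, *Plet1* and 1 of *Pparg*, against 10.8% of all promoters. The direct repeat bound by PPAR and RXR, a pair of hormone response half-sites with 1 base between, stood in none of the 12 and in 0.0396% of all promoters. A match describes the letters only, and binding was not measured.

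The 8 libraries held 5806599 to 21290402 counted reads or read pairs, and *K-Setd2KO* replicate 4 was the shallowest. Values are given as CPM, counts relative to a fixed library size after scaling by edgeR's TMM factors, and 3 counts corresponded to 0.138 to 0.513 CPM. *Setd2* itself ranged from 132 to 153 CPM in *K-Ctrl* and from 121 to 153 CPM in *K-Setd2KO*, with a log2 fold change of -0.05 (SE 0.12, edgeR adjusted p = 0.824), so its RNA level does not tell the groups apart. An edit of the gene need not lower its RNA and was not examined here. The labels give the cell type as lung adenocarcinoma. Markers of alveolar type 2 cells, the epithelial cells that make surfactant, summed to 46026 to 68383 CPM in *K-Ctrl* and 55039 to 78645 CPM in *K-Setd2KO*, and 1 of the 8 in that list passed by edgeR and by DESeq2. It was *Sftpb*, the gene for surfactant protein B, which rose (1.09, SE 0.20, edgeR adjusted p = 0.0122), while *Slc34a2*, a phosphate carrier with the next smallest p, did not pass (0.33, SE 0.17, adjusted p = 0.234).

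Of the 10 macrophage genes, 6 were lower in *K-Setd2KO* at an adjusted p under 0.05 by edgeR's quasi-likelihood test, and none was higher, in DESeq2 either. They were *Mrc1*, *Itgax*, *Plet1*, *Fabp1*, *Siglecf* and *Pparg*. Of all 14929 genes tested, 1155 (7.74%) were called lower. With *K-Ctrl* replicate 1, *K-Ctrl* replicate 3, *K-Setd2KO* replicate 1, *K-Setd2KO* replicate 3 or *K-Setd2KO* replicate 4 left out, 3 members were called, as with a term for sex. By sex-specific expression, *K-Ctrl* replicates 1, 3 and 4 and *K-Setd2KO* replicate 3 were male. The other tumors were female, so sex and genotype are partly confounded. All 10 log2 fold changes were negative, with a median of -1.68 against 0.03 for all genes tested, and for 8 members the p before adjustment was under 0.05. Every *K-Setd2KO* tumor was below every *K-Ctrl* tumor for 4 members, a pattern found in 11.2% of all genes tested. In bulk tumors, fewer cells of a type and less RNA per cell cannot be told apart.

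**Figure D1:**
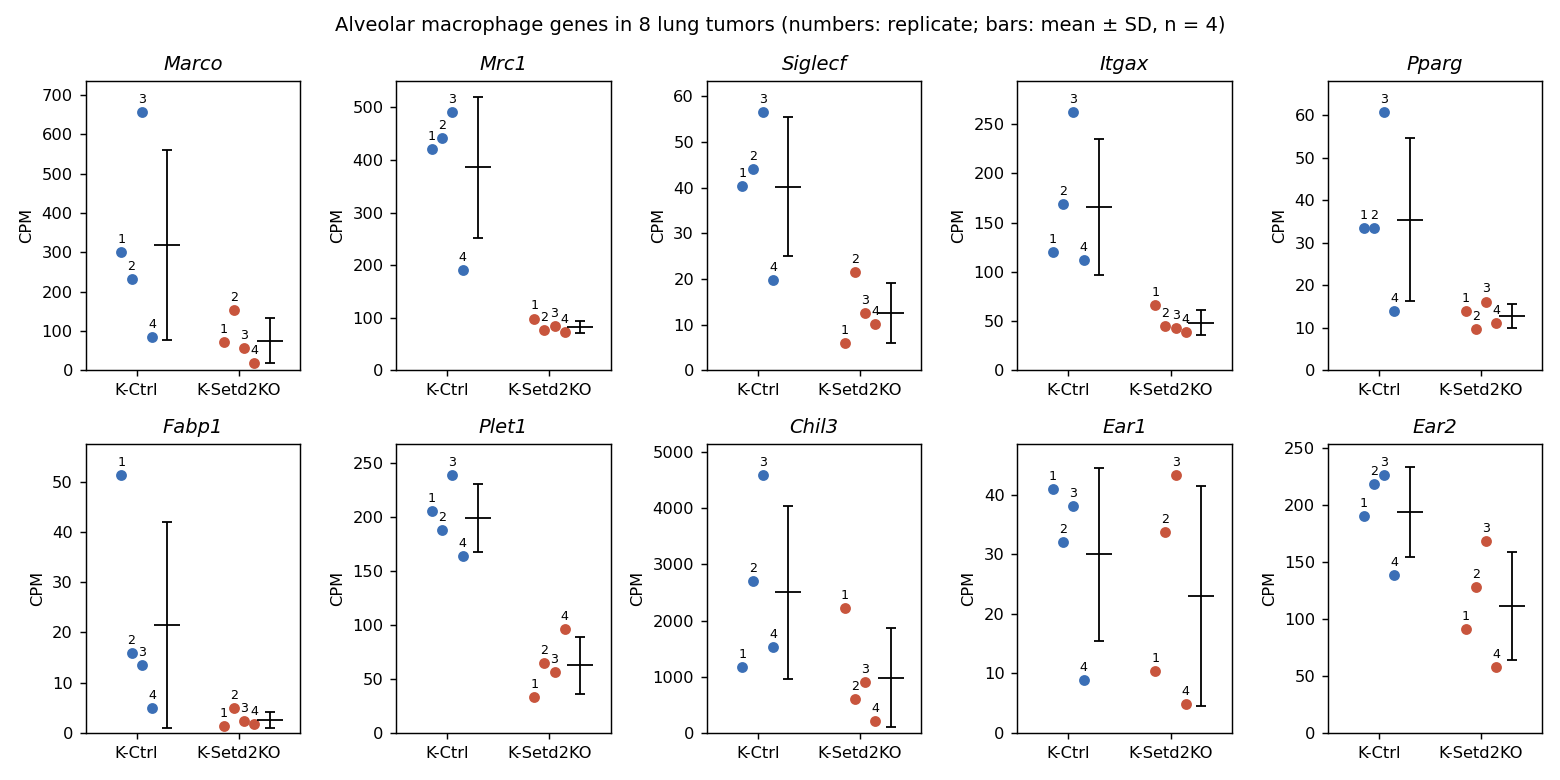
CPM of each gene (vertical axes, each starting at 0) in the 4 *K-Ctrl* tumors (blue) and the 4 *K-Setd2KO* tumors (red), numbered by replicate, with the mean ± SD of each group as a black bar. *Mrc1*, *Itgax*, *Plet1* and *Fabp1* show no overlap between the groups, while in *Chil3* the red point of replicate 1, at 2226 CPM, lies among the blue points.

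Among the surface receptors, *Mrc1* had the smallest p-value of the 10. It encodes the mannose receptor CD206 and lies on chromosome 2 (ENSMUSG00000026712.3, 14229392 to 14332057, plus strand, GRCm38). Its level was 421 CPM, 441 CPM, 491 CPM and 190 CPM in *K-Ctrl* replicates 1 to 4 and 98.4 CPM, 76.0 CPM, 84.3 CPM and 72.4 CPM in *K-Setd2KO* replicates 1 to 4. The *K-Setd2KO* tumors were tightly grouped, and the lowest control, replicate 4, still stood above all of them. The log2 fold change was -2.22 (SE 0.28), a 4.66-fold lower level, with an adjusted p of 0.0056 by edgeR and an exact permutation p of 0.0286, the smallest that 70 assignments of 4 and 4 tumors can give. The microRNA gene *Mir511* lies within *Mrc1* on the same strand. The part of cells other than alveolar macrophages in the *Mrc1* difference was not tested.

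*Itgax*, which encodes the integrin subunit CD11c, lies on chromosome 7 (ENSMUSG00000030789.9, 128129547 to 128150657, plus strand). It stood at 121 CPM, 169 CPM, 262 CPM and 112 CPM in the controls and at 66.7 CPM, 45.2 CPM, 42.5 CPM and 38.7 CPM in *K-Setd2KO*. The groups did not overlap. For this gene the log2 fold change was -1.78 (SE 0.30, edgeR adjusted p = 0.00966, exact permutation p = 0.0286). Of its 50-base transcript windows, 9.61% also occur in the neighbouring integrin gene *Itgad*, which was itself far lower in level, at 2.86 to 7.20 CPM in the controls.

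*Siglecf*, a sialic acid-binding receptor on chromosome 7 (ENSMUSG00000039013.16, 43351341 to 43359531, plus strand), stood at 40.4 CPM, 44.1 CPM, 56.6 CPM and 19.8 CPM in the controls. In *K-Setd2KO* it was 6.06 CPM, 21.5 CPM, 12.6 CPM and 10.1 CPM, so that *K-Setd2KO* replicate 2 passed *K-Ctrl* replicate 4 and the other 3 lay below all controls. The log2 fold change was -1.68 (SE 0.42, edgeR adjusted p = 0.0335, exact permutation p = 0.0571). The call was lost with *K-Ctrl* replicate 1 left out (adjusted p = 0.0702), with *K-Ctrl* replicate 2 (0.0682), *K-Ctrl* replicate 3 (0.0914), *K-Setd2KO* replicate 1 (0.056), *K-Setd2KO* replicate 3 (0.082) or *K-Setd2KO* replicate 4 left out (0.0757), with no filter on low counts (0.0692) and with a term for sex in the fit (0.071). Of markers of eosinophils, the other cells known for *Siglecf*, the list of 6 summed to 2.45 to 9.08 CPM in *K-Ctrl* and 0.646 to 7.14 CPM in *K-Setd2KO*, and *Epx* was at 0 in all 8 tumors. *Prg2* reached 6.72 CPM in *K-Ctrl* replicate 2 and *Alox15* 6.32 CPM in *K-Setd2KO* replicate 1, where the list's sum of 7.14 CPM was above the 6.06 CPM of *Siglecf*. Neither of these 2, the tested genes of the list, passed by edgeR or DESeq2, with 0 at an unadjusted p under 0.05, and the part of eosinophils in the *Siglecf* difference was not tested.

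*Marco*, a scavenger receptor that binds particles and bacteria, lies on chromosome 1 (ENSMUSG00000026390.7, 120474538 to 120505024, minus strand) and had the widest spread of the 4 receptors. The control values were 299 CPM, 231 CPM, 656 CPM and 85.4 CPM, and the *K-Setd2KO* values 71.9 CPM, 153 CPM, 56.4 CPM and 19.2 CPM. All *K-Setd2KO* tumors but 1 lay below all controls, the exception being replicate 2, which lay above *K-Ctrl* replicate 4. The log2 fold change of -2.08 was close in size to that of *Mrc1*, but with an SE of 0.70 it did not pass (edgeR adjusted p = 0.0842, exact permutation p = 0.0571). It passed with *K-Ctrl* replicate 4 left out (adjusted p = 0.0475), with *K-Setd2KO* replicate 2 left out (0.0449) and in DESeq2 (0.0429).

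*Pparg*, the nuclear receptor gene on chromosome 6 (ENSMUSG00000000440.12, 115360951 to 115490399, plus strand), was the lowest member per kilobase of exon in both groups. It stood at 33.5 CPM, 33.5 CPM, 60.7 CPM and 13.9 CPM in the controls and at 13.8 CPM, 9.79 CPM, 16.2 CPM and 11.1 CPM in *K-Setd2KO*. *K-Ctrl* replicate 4 lay within the *K-Setd2KO* range, and the other 3 controls were above it. The fitted log2 fold change was -1.48 (SE 0.39, edgeR adjusted p = 0.0396, exact permutation p = 0.0571). Leaving out any 1 of 7 libraries ended the call: *K-Ctrl* replicate 1 (adjusted p = 0.0777), replicate 2 (0.0712) and replicate 3 (0.0941), and *K-Setd2KO* replicate 1 (0.0739), replicate 2 (0.0743), replicate 3 (0.0713) and replicate 4 (0.0857). A term for sex (0.103) and no filter on low counts (0.0692) ended it too. Fat cells are another source of *Pparg* RNA, and their defining genes *Adipoq* and *Lep* were at 0 in all 8 tumors, with the list of 6 adipocyte markers summing to 0.446 to 3.08 CPM. *Plin4*, the single tested gene of that list, had a positive value that did not pass (1.42, SE 0.55, edgeR adjusted p = 0.119). The part of fat cells, of epithelium or of other cells in the *Pparg* difference was not tested. The gene *Gm44079* overlaps *Pparg* on the opposite strand.

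*Fabp1* had the lowest log2 fold change of the 10, at -3.04 (SE 0.72, edgeR adjusted p = 0.0288, exact permutation p = 0.0286). This carrier of fatty acids lies on chromosome 6 (ENSMUSG00000054422.7, 71199827 to 71205023, plus strand). It was 51.4 CPM, 16.0 CPM, 13.6 CPM and 4.998 CPM in the controls and 1.44 CPM, 4.90 CPM, 2.31 CPM and 1.71 CPM in *K-Setd2KO*. The groups did not overlap, though *K-Ctrl* replicate 4 and *K-Setd2KO* replicate 2 almost met. *K-Ctrl* replicate 1 stood far above the other controls, and the same library held RNA of hepatocytes, which express *Fabp1* strongly, and the part of that RNA in the *Fabp1* level was not tested. All 6 hepatocyte markers were highest there, among them *Alb*, the gene for serum albumin, at 265 CPM against 1.30 to 18.7 CPM in the others (log2 fold change of all 8 tumors -2.63, edgeR adjusted p = 0.305), and *Ahsg*, at 38.9 CPM against 0.185 to 8.90 CPM (-1.82, adjusted p = 0.479). They summed to 428 CPM, against 3.55 to 5.27 CPM in the other controls and 1.76 to 35.4 CPM in *K-Setd2KO*, and *Ttr* had 421 counts there and at most 1 in any other library. Without that tumor the control mean was 11.5 ± 5.77 CPM (SD, n = 3), the log2 fold change was -2.14 and the call was lost (adjusted p = 0.0504). It was also lost without *K-Ctrl* replicate 3 (0.0535), *K-Setd2KO* replicate 1 (0.0636), *K-Setd2KO* replicate 3 (0.0766) or *K-Setd2KO* replicate 4 (0.0663), with no filter on low counts (0.0899) and with a sex term (0.0791).

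**Figure D2:**
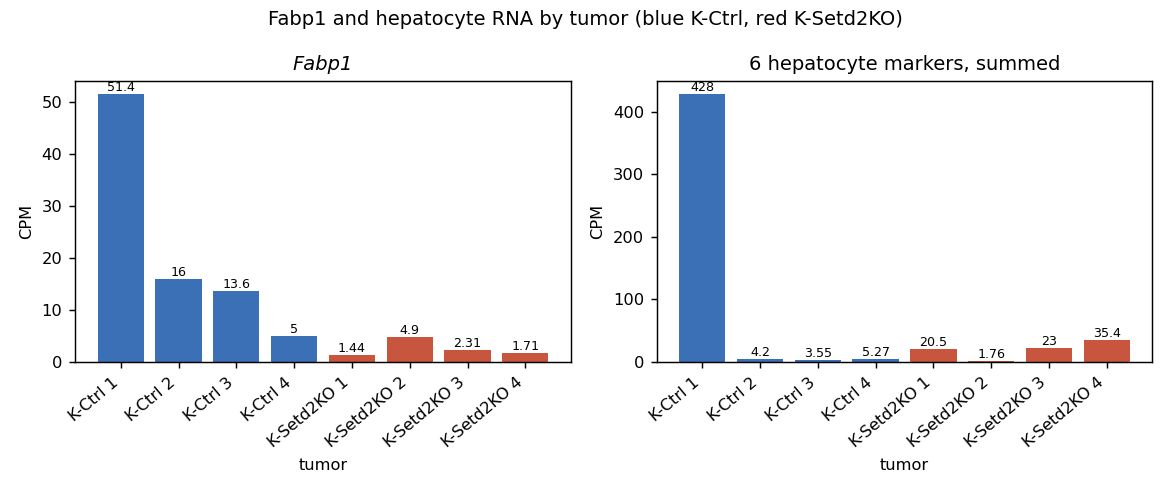
*Fabp1* (left) and the sum of 6 hepatocyte markers (right) in CPM, 1 bar per tumor, blue for *K-Ctrl* and red for *K-Setd2KO*. *K-Ctrl* replicate 1 is the tallest bar in both panels, at 51.4 CPM for *Fabp1* and 428 CPM for the markers, while the other 3 controls reach at most 5.27 CPM for the markers and 4.998 to 16.0 CPM for *Fabp1*.

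*Plet1*, a surface protein gene on chromosome 9 (ENSMUSG00000032068.14, 50494525 to 50505482, plus strand), was the steadiest of the members among the controls, at 206 CPM, 188 CPM, 239 CPM and 164 CPM. In *K-Setd2KO* it was 33.2 CPM, 65.2 CPM, 56.1 CPM and 96.5 CPM. The groups did not overlap, and replicate 4, the lowest *K-Setd2KO* tumor for 6 of the 10 members, was the highest for this gene. Its log2 fold change was -1.67 (SE 0.29, edgeR adjusted p = 0.0109, exact permutation p = 0.0286). The gene *Plet1os* overlaps it on the opposite strand, and it is not stated whether reads were counted by strand. *Mrc1*, *Itgax* and *Plet1* were the 3 members called lower in each of the 14 alternatives tried, which included leaving out each library in turn.

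*Pparg* and *Fabp1* both lie on chromosome 6, where the 839 genes tested had a median log2 fold change of 0.27 against 0.03 for all genes. That shift stood at 0.34, 0.32 and 0.38 on the log2 scale in *K-Setd2KO* replicates 1, 3 and 4 and at -0.03 in replicate 2, each relative to the control mean. The 2 macrophage genes on that chromosome were lower, not higher, in *K-Setd2KO*.

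The genes of the 3 secreted proteins did not pass. *Chil3* encodes the chitinase-like protein Ym1 and lies on chromosome 3 (ENSMUSG00000040809.10, 106147554 to 106167564, minus strand). It was the most abundant member, with 1170 CPM, 2706 CPM, 4596 CPM and 1528 CPM in the controls and 2226 CPM, 597 CPM, 913 CPM and 205 CPM in *K-Setd2KO*. Its highest and lowest *K-Setd2KO* tumors differed 10.8-fold, and *K-Setd2KO* replicate 1 exceeded 2 of the 4 controls while the other 3 lay below all of them. Its log2 fold change was -1.34 (SE 0.68, edgeR adjusted p = 0.225, exact permutation p = 0.114). Of its 50-base transcript windows, 29.4% also occur in *Chil4* or *Gm6522*, and the *Chil3* and *Chil4* transcripts are 94.4% identical. *Chil4* was listed at 0 to 22.1 CPM over the 8 tumors, highest in *K-Ctrl* replicate 4 at 22.1 CPM and in *K-Setd2KO* replicate 1 at 11.7 CPM.

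*Ear1* and *Ear2* encode eosinophil-associated ribonucleases, which in the mouse lung are also made by alveolar macrophages. Both lie on chromosome 14, *Ear1* (ENSMUSG00000072601.4) at 43818765 to 43875517 on the minus strand and *Ear2* (ENSMUSG00000072596.4) at 44102654 to 44103534 on the plus strand. The *Ear1* promoter shown above lies inside the span counted for that gene, not before its end at 43875517. *Ear2* stood at 190 CPM, 219 CPM, 226 CPM and 139 CPM in the controls and at 91.4 CPM, 128 CPM, 168 CPM and 57.7 CPM in *K-Setd2KO*. Only *K-Setd2KO* replicate 3 reached the control range, and the log2 fold change of -0.80 (SE 0.30) did not pass (edgeR adjusted p = 0.117, exact permutation p = 0.0571). *Ear1* stood at 40.9 CPM, 32.0 CPM, 38.1 CPM and 8.84 CPM in the controls and at 10.3 CPM, 33.7 CPM, 43.4 CPM and 4.79 CPM in *K-Setd2KO*. Here the groups overlapped, and the highest tumor of all was *K-Setd2KO* replicate 3 (log2 fold change -0.37, SE 0.67, edgeR adjusted p = 0.747, exact permutation p = 0.6). The transcripts of the pair are 96.8% identical, 57.4% of the *Ear1* windows and 41.5% of the *Ear2* windows occur in other genes, and their promoters shown above are 99.0% identical over the 300-base window. Pseudogenes of the family and other annotated genes also overlap *Ear1* on both strands, and *Gm49101* overlaps *Ear2*. How shared reads were split is not given, so the separate levels of *Ear1* and *Ear2* are uncertain.

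The same controls were the highest and the lowest for most members, and the order was more mixed in *K-Setd2KO*. Among the controls, replicate 3 was the highest for 8 members and replicate 1 for the other 2, *Fabp1* and *Ear1*. Replicate 4 was the lowest control for 9 members, and *Chil3*, lowest in replicate 1, was the exception. *K-Ctrl* replicate 4 also had the lowest sums of the controls for 10 general leukocyte genes, at 1152 CPM against 1356 to 2137 CPM, and for 10 general macrophage genes, at 1469 CPM against 1833 to 2949 CPM. Its mean position over the members, as log2 CPM centred on each gene's mean, was -0.11, against 0.97 to 1.44 for the other controls and -1.47 to -0.42 for the *K-Setd2KO* tumors. In *K-Setd2KO* the highest tumor was replicate 1, 2 or 3 for 3 members each and replicate 4 for 1. The lowest was replicate 4 for 6 members, replicate 1 for 3 and replicate 2 for 1. *K-Setd2KO* replicate 4 also had the lowest macrophage sum, at 489 CPM against 708 to 821 CPM, though its leukocyte sum was the highest of its group, at 823 CPM against 629 to 820 CPM. The leukocyte gene *Lcp1* made 73.0% of that sum, against 55.5% to 63.6% in the other *K-Setd2KO* tumors. *Lcp1* was also highest there, at 600 CPM against 349 to 522 CPM, and the rank rests on this gene.

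**Figure D3:**
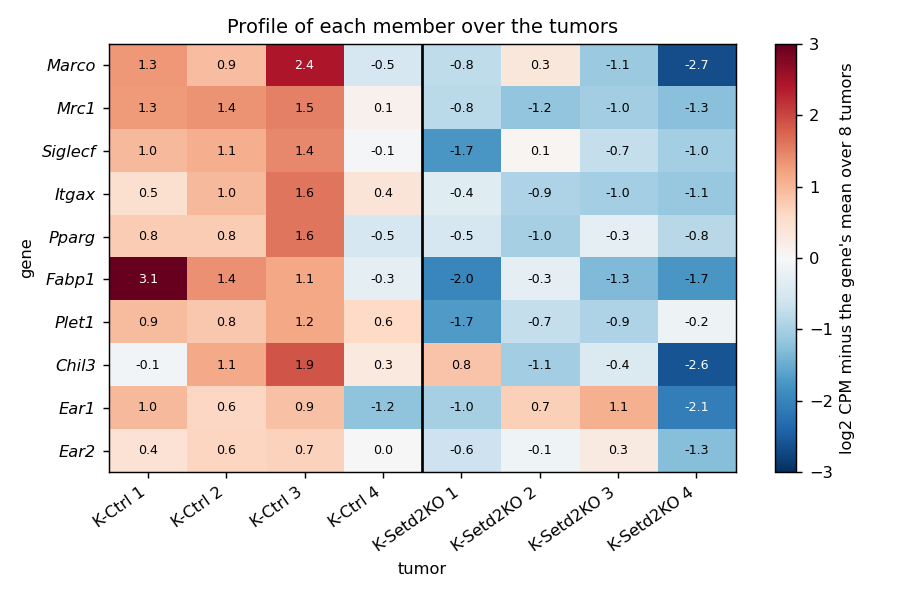
Log2 CPM of each gene (rows) minus its mean over the 8 tumors (columns), printed in each cell and shown as red above 0 and blue below 0, with a line between *K-Ctrl* and *K-Setd2KO*. The first 3 controls are red for all genes but *Chil3* in replicate 1, *K-Ctrl* replicate 4 lies near 0 for most genes, and *K-Setd2KO* replicate 4 is blue throughout.

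Added up, the 10 genes made 2573 CPM, 4079 CPM, 6641 CPM and 2266 CPM in the controls and 2620 CPM, 1134 CPM, 1395 CPM and 517 CPM in *K-Setd2KO*. *Chil3* supplied 45.5% to 69.2% of that sum in the controls and 39.7% to 85.0% in *K-Setd2KO*, the highest share in replicate 1. Without *Chil3* the sum ran from 738 to 2045 CPM in *K-Ctrl* and from 312 to 537 CPM in *K-Setd2KO*, with no overlap. Per kilobase of exon, the order in *K-Ctrl* ran from *Chil3* at 1532 ± 946 CPM per kb (SD, n = 4) over *Ear2* at 269 ± 55.1, *Marco* at 165 ± 126, *Plet1* at 102 ± 16.4, *Mrc1* at 60.6 ± 21.0, *Ear1* at 41.1 ± 19.97, *Fabp1* at 38.9 ± 37.1, *Itgax* at 34.5 ± 14.4 and *Siglecf* at 14.4 ± 5.47 to *Pparg* at 11.99 ± 6.51. Neighbours from *Ear2* to *Marco*, *Marco* to *Plet1*, *Mrc1* down to *Itgax* and *Siglecf* to *Pparg* differed by less than the larger SD of the pair. In *K-Setd2KO* the order was the same but for *Ear1*, which at 31.6 ± 25.3 CPM per kb stood above *Mrc1* at 12.99 ± 1.81, and *Itgax* at 10.1 ± 2.61, which stood above *Fabp1* at 4.68 ± 2.86.

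Lists of general macrophage, general leukocyte and dendritic cell genes were read beside the members. Of 10 pan-macrophage genes, 8 fell, with a median log2 fold change of -1.71. They included *Csf1r*, the receptor for the macrophage growth factor M-CSF (-1.59, SE 0.21, edgeR adjusted p = 0.00574), and *Tyrobp*, an adaptor of activating receptors (-1.34, SE 0.19, adjusted p = 0.00643). Of 10 pan-leukocyte genes, 8 fell, with a median of -1.59, among them *Laptm5* (-1.80, SE 0.20, edgeR adjusted p = 0.00506) and *Ptprc*, which encodes CD45 (-2.08, SE 0.26, adjusted p = 0.0056). Both lists lay close to the members' median of -1.68. Of 7 tested dendritic cell genes, 4 fell by edgeR and 7 by DESeq2, all 7 had an unadjusted edgeR p under 0.05, and the median was -2.12, including *Irf8* (-1.64, SE 0.26, edgeR adjusted p = 0.00834) and *Ccr7* (-3.29, SE 0.56, adjusted p = 0.0102), and their summed level was 69.1 to 138 CPM in *K-Ctrl* and 16.9 to 31.4 CPM in *K-Setd2KO*. The part of dendritic cells in the *Itgax* difference was not tested. On the pan-leukocyte scale, introduced next, 2 of the 10 pan-macrophage genes and 2 of the 7 dendritic cell genes were called lower.

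To compare the members with general leukocyte RNA, the fit was repeated with each library scaled to its summed pan-leukocyte counts instead of its whole size. On that scale the median of all genes moved to 1.15 on the log2 scale, 1.68% of genes were called lower and 67.3% higher, and all 10 members stayed under that median. *Mrc1* was the single member called lower, with a log2 fold change of -1.01 (SE 0.31, edgeR adjusted p = 0.00631). The others lay between -1.89 for *Fabp1* (SE 0.81, edgeR adjusted p = 0.0657) and 0.96 for *Ear1* (SE 0.80, adjusted p = 0.318), and *Ear2* was also positive at 0.44 (SE 0.35, adjusted p = 0.253). *Lcp1* made 38.9% to 48.1% of the leukocyte sum in *K-Ctrl* and 55.5% to 73.0% in *K-Setd2KO*, and was not called (-0.61, SE 0.24, edgeR adjusted p = 0.13). In an alternative chosen after the values were seen, the sum was taken over the other 9 genes. There the median of all genes was 1.80, 0.482% of genes were called lower and 81.9% higher, and *Mrc1* was no longer called (-0.33, edgeR adjusted p = 0.362), while *Ear2* was called higher (1.04, adjusted p = 0.00462) at a value under that median. On the scale of all 10 leukocyte genes, *K-Setd2KO* replicate 2 also bore on the count. Without it 4 members were called lower by edgeR, *Mrc1*, *Marco* (-1.45, adjusted p = 0.000902), *Siglecf* (-0.88, adjusted p = 0.0419) and *Fabp1* (-2.53, adjusted p = 1.01e-05). *Fabp1* was also called lower without *K-Ctrl* replicate 4 (adjusted p = 0.0273), with no filter on low counts (0.000183) and with a replicate block (0.0176, where *Marco* was called as well at 0.0419), *Ear1* was called higher without *K-Setd2KO* replicate 4 (1.30, adjusted p = 0.0407), and without *K-Ctrl* replicate 1, which held the hepatocyte RNA, *Fabp1* stood at -0.70 (adjusted p = 0.225).

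**Figure D4:**
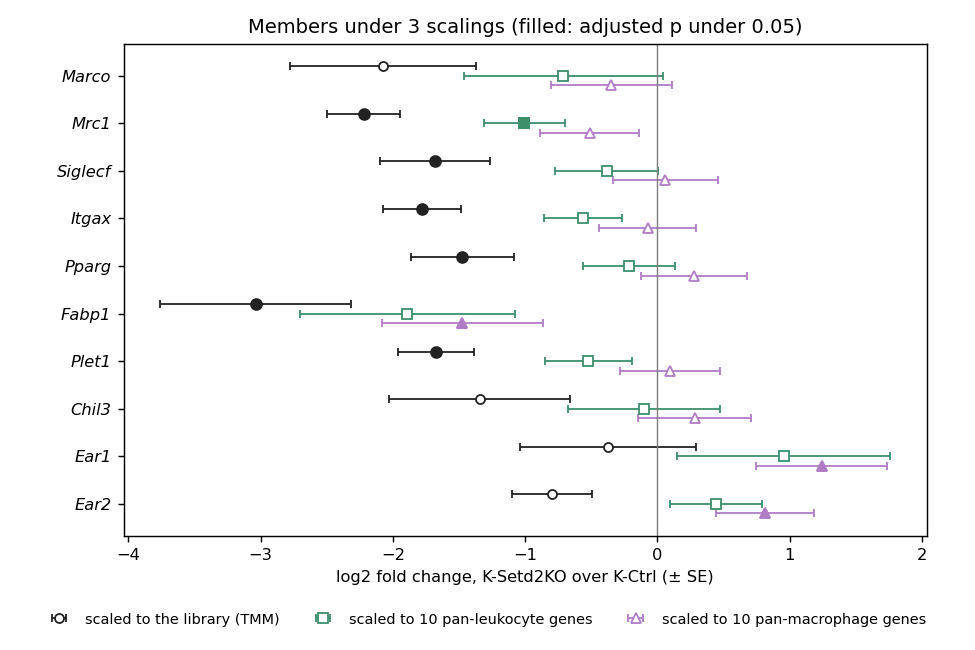
Log2 fold changes (horizontal axis, ± SE) of the 10 genes, *K-Setd2KO* over *K-Ctrl*, with each library scaled to its size by TMM (black circles), to 10 pan-leukocyte genes (green squares) or to 10 pan-macrophage genes (purple triangles). Filled symbols have an adjusted p under 0.05. The circles run from -3.04 to -0.37, and under both other scalings every gene lies further right, with *Ear1* and *Ear2* above 0.

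Scaled to the 10 pan-macrophage genes, the median of all genes was 1.65, and 0.623% of genes were called lower and 78.6% higher. *Fabp1* was called lower on that scale (-1.48, SE 0.61, edgeR adjusted p = 0.0312), with the hepatocyte RNA of *K-Ctrl* replicate 1 included, and *Mrc1* was not (-0.51, adjusted p = 0.198). *Ear1* (1.24, SE 0.49, edgeR adjusted p = 0.0245) and *Ear2* (0.81, SE 0.37, adjusted p = 0.0388) were called higher, although both values lay below the median of all genes on that scale. *Siglecf*, *Itgax*, *Plet1*, *Pparg*, *Marco* and *Chil3* lay between -0.35 and 0.28 and did not pass. In each tumor, *Ear2* was 0.0768 to 0.104 of the pan-macrophage sum in the controls and 0.111 to 0.212 of it in *K-Setd2KO*, with no overlap. How many of all genes lack overlap in this ratio was not counted, and 78.6% of genes were called higher on that scale. For *Mrc1* that ratio was 0.130 to 0.229 in *K-Ctrl* and 0.106 to 0.148 in *K-Setd2KO*, with overlap. The *Chil3* ratio was highest in *K-Setd2KO* replicate 1, at 2.71, and lowest in *K-Setd2KO* replicate 4, at 0.420.

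Further genes of alveolar macrophage biology were read in lists written by hand, 73 genes in all, of which 60 were tested: 24 fell and 3 rose, with a median log2 fold change of -0.95. Without *K-Ctrl* replicate 3, 15 were called lower. Of 12 other alveolar macrophage markers, 10 fell, with a median of -2.06. The calls of *Ctsk*, *Il18*, *Krt79* and *Msr1* among them were lost without *K-Ctrl* replicate 3. *Slc7a2*, a carrier of cationic amino acids, was at 175 to 303 CPM in *K-Ctrl* and 55.1 to 77.6 CPM in *K-Setd2KO* (-1.85, SE 0.19, edgeR adjusted p = 0.00385). *Car4*, a membrane carbonic anhydrase, was at 73.0 to 218 CPM and 22.9 to 30.4 CPM (-2.63, SE 0.32, adjusted p = 0.0056). *Cd9* (-0.19, adjusted p = 0.535 by edgeR) and *Mcoln3* (-2.28, adjusted p = 0.071) were the 2 that did not pass. Of this list, *Msr1*, *Clec7a*, *Siglec1* and *Ctsk* are made by other macrophages too. The part of cells other than macrophages in the values of this list, *Car4* included, was not tested on any scale. Scaled to the pan-leukocyte sum, 7 of the 12 were called lower and 1 higher, with a median of -0.81 against 1.15 for all genes. *Car4* was among them (-1.45, SE 0.33, edgeR adjusted p = 0.00114), as was *Krt79* (-2.49, SE 0.90, adjusted p = 0.0421). Scaled to the pan-macrophage sum, 2 of the 12 were called lower and 1 higher, with a median of -0.28 against 1.65.

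In the growth factor axis, 5 of 11 genes fell and none rose, with a median of -0.54. They were *Csf2rb*, *Csf2rb2*, *Csf2ra*, *Csf1* and *Stat5b*, and without *K-Ctrl* replicate 1 only *Csf2rb* and *Csf2rb2* of them stayed called. *Csf2rb*, the beta chain that the GM-CSF receptor shares with related cytokine receptors, fell from 59.3 to 135 CPM in *K-Ctrl* to 24.5 to 36.9 CPM in *K-Setd2KO* (log2 fold change -1.69, SE 0.28, edgeR adjusted p = 0.00895). *Csf2rb2*, a beta chain of the interleukin-3 receptor, fell too (-1.73, SE 0.28, edgeR adjusted p = 0.00834). *Csf2ra*, the GM-CSF-specific chain, fell as well (-0.84, SE 0.23, edgeR adjusted p = 0.0436). That call was lost without *K-Ctrl* replicate 1, 2 or 3, without *K-Setd2KO* replicate 1, 3 or 4 (adjusted p 0.0733 to 0.118) and with a sex term (0.0713). The ligand *Csf2* was low in every tumor, at 1.20 to 6.09 CPM, and did not pass (0.09, SE 0.44, edgeR adjusted p = 0.914). The TGF-β receptor genes *Tgfbr1* (0.18, SE 0.25) and *Tgfbr2* (-0.24, SE 0.13) did not pass either, nor did *Tgfb1* (-0.65, SE 0.22, edgeR adjusted p = 0.0855). On the pan-leukocyte scale none of the 11 was called lower and 4 (against 67.3% of all genes) were called higher, with a median of 0.60 under the 1.15 of all genes, so these directions hold on the library scale.

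Of 10 transcription factors, 2 fell and 2 rose by edgeR, with a median of -0.63, while DESeq2 called 5 lower and 2 higher. The 3 called lower by DESeq2 alone were *Cebpb* (edgeR -1.27, SE 0.39, adjusted p = 0.0628), *Rxra* (-0.68, SE 0.20, adjusted p = 0.0509) and *Klf4* (-1.12, SE 0.42, adjusted p = 0.112). *Spi1* fell from 18.5 to 46.3 CPM in *K-Ctrl* to 5.82 to 10.8 CPM in *K-Setd2KO* (log2 fold change -1.77, SE 0.30, edgeR adjusted p = 0.0102), and *Maf* fell as well (-1.24, SE 0.35, adjusted p = 0.0483), a call lost without any 1 library but *K-Ctrl* replicate 4 (adjusted p 0.0634 to 0.115) and with a replicate block (0.0759). *Cebpa*, which lung epithelium also expresses, rose from 265 to 385 CPM to 539 to 626 CPM (0.89, SE 0.14, edgeR adjusted p = 0.00834), and *Bhlhe40* rose (1.03, SE 0.23, adjusted p = 0.0217), a call lost without *K-Ctrl* replicate 1, 2 or 3 or *K-Setd2KO* replicate 3 (adjusted p 0.0501 to 0.0618). Of 10 genes for handling surfactant lipid, 3 fell and none rose, with a median of -0.55. *Olr1*, a receptor for oxidized lipoprotein, fell from 36.2 to 120 CPM to 11.9 to 13.7 CPM (-2.64, SE 0.34, edgeR adjusted p = 0.00574), *Abcg1*, an exporter of cholesterol, from 89.4 to 236 CPM to 35.4 to 49.9 CPM (-1.91, SE 0.27, adjusted p = 0.00667), and the lipase *Lpl* also fell (-1.69, SE 0.38, adjusted p = 0.0238). The *Lpl* call was lost without *K-Ctrl* replicate 1, 2 or 3 or *K-Setd2KO* replicate 1 or 4 (adjusted p 0.0501 to 0.0616), with no filter on low counts (0.06) and with a sex term (0.0566). *Fabp4* and *Fabp5*, relatives of *Fabp1* in this list, had positive values that did not pass (0.50, SE 0.59 and 1.24, SE 0.62). On the pan-leukocyte scale the medians of the 2 lists turned positive, at 0.49 and 0.64, under the 1.15 of all genes. Of each list 4 genes were called higher there, against 67.3% of all genes, and 0 transcription factors and 2 lipid genes were called lower, *Olr1* (-1.36, SE 0.31, edgeR adjusted p = 0.00122) and *Abcg1* (-0.70, SE 0.31, adjusted p = 0.0463).

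Relatives of the members by gene family were read beside them. Of 26 relatives in the table, 17 were tested, 4 fell and 1 rose by edgeR (DESeq2 called 7 lower and 3 higher among 21), with a median of -0.92, which turned to 0.25 on the pan-leukocyte scale, under the 1.15 of all genes, with 2 called lower and 5 higher, against 67.3% of all genes called higher. Among integrins, the leukocyte subunits *Itgal* (log2 fold change -2.16, SE 0.24, edgeR adjusted p = 0.00453) and *Itgb2*, the beta partner of CD11c (-2.03, SE 0.25, adjusted p = 0.0056), fell, and so did *Itgad* (-2.37, SE 0.44, adjusted p = 0.0126). *Itgam* did not pass (-0.23, SE 0.53, edgeR adjusted p = 0.807). Among relatives of the mannose receptor, *Ly75* fell (-1.42, SE 0.26, edgeR adjusted p = 0.0124) and *Mrc2*, which stromal cells express, did not pass (0.61, SE 0.30). *Ppara* (0.24, SE 0.35) and *Ppard* (0.72, SE 0.25, edgeR adjusted p = 0.0887), the relatives of *Pparg*, had positive values that did not pass. *Scara3* was the relative that rose by edgeR (2.30, SE 0.49, adjusted p = 0.019), a call lost without *K-Ctrl* replicate 1 or 3 (adjusted p up to 0.0543), and *Chil1*, at 94.9 to 1293 CPM in *K-Ctrl* and 1482 to 6532 CPM in *K-Setd2KO*, did not pass by edgeR (2.24, SE 0.75, adjusted p = 0.0821) and did by DESeq2 (adjusted p = 0.0192), with no overlap between the groups.

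**Figure D5:**
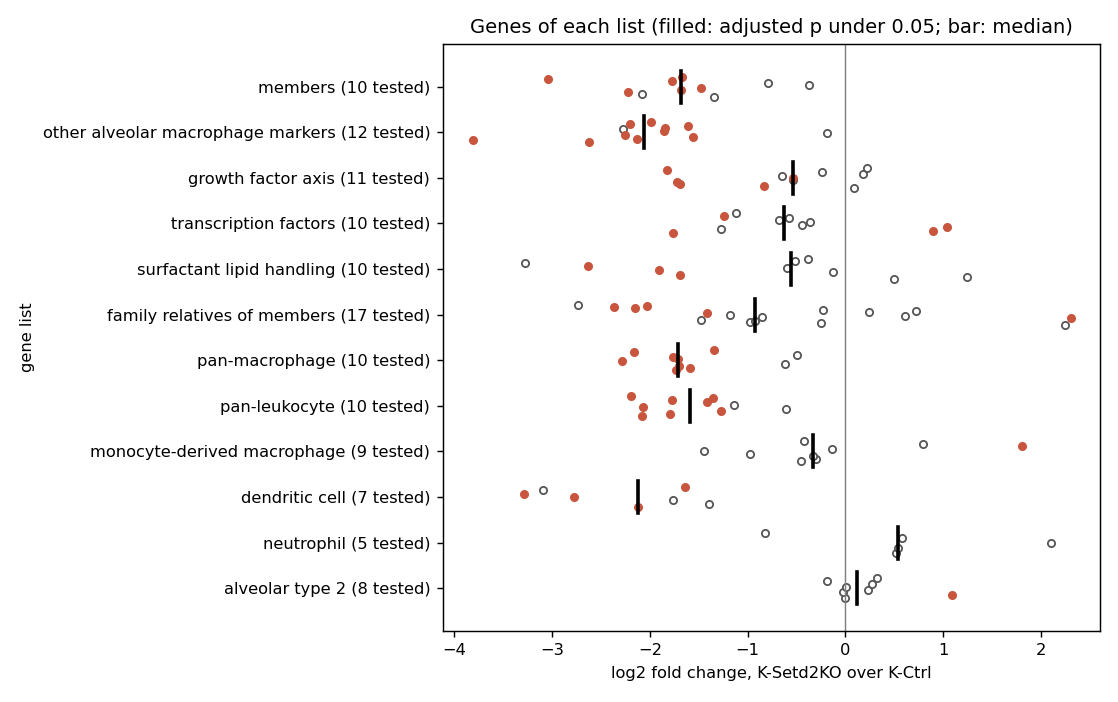
Log2 fold change, *K-Setd2KO* over *K-Ctrl*, of each tested gene (points) in 12 lists (rows), filled red where the adjusted p was under 0.05, with the median of each list as a black bar. The members, other alveolar macrophage markers, pan-macrophage and pan-leukocyte lists have medians of -1.68, -2.06, -1.71 and -1.59, whereas the alveolar type 2 list lies at 0.12 and the neutrophil list at 0.54.

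Lists for other cell types were read in the same way. Of 9 tested genes of monocyte-derived macrophages, none fell by edgeR and 1 rose, with 3 at an unadjusted p under 0.05 and a median of -0.33. DESeq2 called 2 lower, *Ccr2* and *Trem2*, and 1 higher. The gene that rose was *Ly6c2*, a surface antigen of monocytes, at 8.17 to 20.0015 CPM in *K-Ctrl* and 22.1 to 98.1 CPM in *K-Setd2KO* (log2 fold change 1.81, SE 0.49, edgeR adjusted p = 0.0454). The *Ly6c2* call was lost without any 1 library but *K-Setd2KO* replicate 2 (adjusted p 0.0532 to 0.115), with no filter on low counts (0.128), with a replicate block (0.112) and with a sex term (0.0582). *Ccr2*, of the same list, pointed the other way (-1.44, SE 0.57). It passed by DESeq2 (adjusted p = 0.0352) and not by edgeR (adjusted p = 0.126). *Trem2* had a value of -0.97 that did not pass by edgeR (SE 0.34, adjusted p = 0.0876). None of 5 tested neutrophil genes passed by edgeR, DESeq2 called 1 of 6 higher, the low *Ngp* (2.32, adjusted p = 0.0396), and the unadjusted edgeR p was under 0.05 for 1. They had a median of 0.54, their list summed to 16.1 to 20.8 CPM in *K-Ctrl* and 14.3 to 57.3 CPM in *K-Setd2KO*, and *Cxcr2* (2.10, SE 0.85, edgeR adjusted p = 0.136) and *Csf3r* (-0.82, SE 0.45, adjusted p = 0.257) had the smallest p-values. Of 6 lymphatic endothelial genes, 4 fell by edgeR and 5 by DESeq2, with a median of -1.51, including *Prox1* (-2.12, SE 0.45, edgeR adjusted p = 0.0183) and *Lyve1* (-2.56, SE 0.57, adjusted p = 0.023), which some tissue macrophages and liver endothelium also express. *Lyve1* stood at 375 CPM in *K-Ctrl* replicate 1, the library with hepatocyte RNA, against 50.9 to 107 CPM in the other controls, and at -1.69 (edgeR adjusted p = 0.0181) without that library, and the part of that RNA was not tested. The *Lyve1* call was lost without *K-Setd2KO* replicate 3 (0.0668) or 4 (0.0559), with no filter (0.0931) and with a sex term (0.153), and that of *Prox1* without *K-Ctrl* replicate 1 or 3 (adjusted p up to 0.0548). The others called by edgeR, *Ccl21a* and *Mmrn1*, were lost without *K-Ctrl* replicate 1, without *K-Setd2KO* replicate 3 and without further libraries. Only *Lyve1* of this list thus stayed called without *K-Ctrl* replicate 1. None of 5 tested club cell genes passed by edgeR, 2 had an unadjusted p below 0.05, and these pointed in opposite directions. *Muc5b*, an airway mucin, was at 0.246 to 3.57 CPM in *K-Ctrl* and 2.29 to 57.0 CPM in *K-Setd2KO* (3.72, SE 1.14, edgeR adjusted p = 0.0637). *Scgb1a1*, the main secreted protein of club cells, was at 458 to 2631 CPM in *K-Ctrl* and 38.0 to 758 CPM in *K-Setd2KO* (-2.74, SE 0.95, edgeR adjusted p = 0.0914). DESeq2 called *Scgb1a1* lower (adjusted p = 0.0472) and *Muc5b* (0.0111) and *Bpifa1* (0.00117) higher, the last at no more than 2.57 CPM in any tumor and not tested by edgeR. *Cyp2f2* was at 78.7 to 186 CPM in *K-Ctrl* and 97.4 to 205 CPM in *K-Setd2KO* (0.35, SE 0.33, edgeR adjusted p = 0.519). *Plet1* is known from airway and other epithelia too, and the part of such cells in its difference was not tested.

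Outside all lists, the 6 genes whose centred log2 CPM profile over the 8 tumors lay nearest to the mean profile of the members were *Myo7a*, *AU020206*, *Dmxl2*, *Btk*, *Rab32* and *Ptpre*. Their root mean square differences from it were 0.14 to 0.19 on the log2 scale. The members themselves differed from their own mean by 0.38 for *Mrc1*, 0.39 for *Pparg*, 0.40 for *Siglecf* and 0.41 for *Itgax* up to 0.86 for *Ear1*, 0.88 for *Chil3* and 0.89 for *Fabp1*. The 6 genes had log2 fold changes between -1.80 for *Btk*, a kinase of B cells and myeloid cells, and -1.54 for *Rab32*. Since they were picked by a profile that holds the difference between the groups, no test is given for them.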

How the data were processed

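RNA from 8 tumors was sequenced after TruSeq Stranded mRNA library preparation. The authors deposited 1 table of raw counts per gene, whole numbers with no normalization, with Ensembl identifiers, GRCm38 coordinates and exon lengths. The submitters' processing notes name STAR 2.5.2b, featureCounts 1.5.0-p1 and GRCm38.p4, with no role, strand setting or treatment of multimapping reads given. Symbols, and transcripts for the windows of 50 bases, came from GENCODE M21 (99.26% of identifiers matched), and promoters from RefSeq GRCm38.p6, where all 10 members matched.

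Genotypes were compared in R 4.3.3 with edgeR 4.0.16 (filterByExpr, TMM, robust quasi-likelihood fit and test, genotype as the only term). P-values were adjusted by Benjamini-Hochberg over 14929 genes, with a threshold of 0.05. The scripts were tested on simulated data. The SE is the size of the fold change over the root of F, on the log2 scale. Log2 CPM used a prior count of 2. Exact permutation tests were two-sided over 70 assignments of tumors. The fits relative to leukocytes or macrophages replaced library sizes by the summed counts of 10 genes. Alternatives were DESeq2 (here version 1.42.0, in the study an earlier one), its size factors in edgeR, a filter of at least 10 counts in every tumor, no filter, a replicate block, a sex term from sex-specific expression and leaving out each tumor. Depth limits low values, with 3 counts equal to 0.138 to 0.513 CPM.

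The members and lists were chosen with earlier results of these data known. Genes named by rule are the members, the 2 tested genes of smallest p in each list, the 6 nearest profiles and *Setd2*. The other genes named were chosen after their values were seen. From the lists of 30 relatives, *Ear3*, *Ear4*, *Ear5* and *Ear12* were not matched. Tuft cell (2 tested), hepatocyte (3) and adipocyte (1) markers held 0 calls by edgeR and by DESeq2, with an unadjusted p under 0.05 for 1 of them, *Plin4* (edgeR log2 fold change 1.42). The tested tuft cell genes were *Dclk1* (0.26, SE 0.31, adjusted p = 0.614) and *Avil* (-0.34, SE 0.74, adjusted p = 0.797). The allele that defines the *K* model is not reported here.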

Additional observations from a re-analysis of the deposited data

How the results depend on the processing

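All 10 members kept a negative log2 fold change in all 14 alternatives on the library scale. The count of members called lower, 6, was 3 with no filter on low counts and 3 with a sex term, 7 in DESeq2, and 3 to 7 with single tumors left out (3 each without *K-Ctrl* replicate 1 or 3 or *K-Setd2KO* replicate 1, 3 or 4). Same-numbered tumors deviated little together in replicates 1, 2 and 4 (correlations -0.096 to 0.087), while the pair of replicate 3 reached 0.27. Of the 8 tumors, 3 were closest to their own number, so the replicate block is a hint only. With it 8 members were called, *Marco* (adjusted p = 0.0427) and *Ear2* (0.0303) in addition. All genes called numbered 1897, against 3211 in DESeq2, 1237 with a sex term and 763 to 2058 with single tumors left out. Context genes called lower numbered 24, and 15 to 26 with single tumors left out. Members called relative to leukocytes numbered 1, against 2 with no filter, 3 with the replicate block, 0 without *Lcp1* and 1 to 4 with single tumors left out, the 4 without *K-Setd2KO* replicate 2. Leukocyte-scaled values changed sign to positive without *Lcp1* for *Chil3* (0.50), *Siglecf* (0.22), *Pparg* (0.47), *Itgax* (0.084) and *Plet1* (0.19), and on the pan-macrophage scale for *Chil3* (0.28), *Siglecf* (0.0612), *Pparg* (0.28) and *Plet1* (0.0947). With single tumors left out, those of *Chil3* ran from -0.72 to 0.25 and of *Pparg* from -0.42 to 0.0147. The cause of these changes was not tested. In 20 groups of values examined, no tumor stood out by Dixon's criterion, where chance gives about 1.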
